A study of Rattus norvegicus with 24 samples.

Results

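The cytosolic sulfotransferases described here are Sult4a1 and the genes Sult1a1, Sult1b1, Sult1c2, Sult1c3, Sult1e1 and Sult2b1, read by gene name from the table of liver expression. Of these 7 names, 5 had a row among the 30957 genes of the table, and all 5 passed the filter on low values. Sult1c2 and Sult1e1 were not analysed here, since no row carried their names. The set was chosen on values of these same libraries, with the group comparisons of Sult4a1, which heads it, already known. The study also labelled Sult2b1 as a gene high in darkness rats. The group differences of Sult4a1 are therefore given as a description with no test, and p-values of the other members, adjusted over all genes, are values that support nothing.

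Liver RNA came from 24 female Sprague-Dawley rats aged 14 weeks, with 1 library per rat and 8 rats per group. All rats were fasted overnight before sampling. Control rats lived with 12 h of dark in each day and received saline by mouth. Darkness rats received saline during 8 weeks of housing with 24 h of dark in each day, and DL.reuteri rats had the same housing with L. reuteri (Limosilactobacillus reuteri, a gut bacterium given as a probiotic) at 100 mg per day in place of saline. No group received L. reuteri under the light-dark cycle, so darkness and L. reuteri together can be compared with control rats, but L. reuteri alone cannot. The study used constant darkness to disturb the circadian rhythm, and asked which liver genes L. reuteri changed in darkness rats.

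Cytosolic sulfotransferases move a sulfonate group from the donor PAPS onto a hydroxyl or amino group of a small molecule, such as a steroid, thyroid hormone, bile acid, phenol or drug. The product is more soluble in water, is usually less active and is excreted more easily, and the liver is the main site of this reaction. Within the family, the 1 subfamilies act mainly on phenols, the 2 subfamilies on hydroxysteroids, and Sult4a1 encodes an orphan member, known from the brain, for which no substrate is established.

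Values are FPKM, in which fragments per gene are divided by gene length and by the library's mapped fragments, so levels of different genes can be set side by side. Read counts are not given, so depth is unknown for every library and counting intervals cannot be stated. Summed FPKM per library ran from 570300 to 989100 (median 703450), with 13901 to 14951 genes detected above 0. The mitochondrial genome contributed 12.5 to 85.5% of the sum (median 40.0%). DL.reuteri 3 stood apart, with the 85.5% (the next highest library had 60.0%) and a mean log2(FPKM + 1) of hepatocyte markers of 9.05, against at least 10.8 in the other 23 libraries. Differences of the members and calls in the gene lists are also given without this library where it moved them. All 6 hepatocyte markers were present in every library, with Alb between 8028 and 56990 FPKM. Adipocyte markers reached a summed 331.6 FPKM in control 8 and 160.9 FPKM in DL.reuteri 2, against medians of 22.8 to 27.5 FPKM in the 3 groups.

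Sult4a1 (ENSRNOG00000046975) was present in all 24 livers, and its level ran from 0.164 to 26.6 FPKM, a 162-fold range. In control rats 1 to 8 it was 16.9, 26.6, 11.3, 6.39, 2.92, 0.575, 1.003 and 4.015 FPKM. In darkness rats 1 to 8 it was 9.11, 10.5, 16.3, 14.5, 8.60, 8.67, 14.4 and 6.09 FPKM. Control rats were thus spread from the level of DL.reuteri rats to above that of any darkness rat, whereas the 8 darkness rats lay close together. In DL.reuteri rats 1 to 8 it was 0.574, 0.189, 0.164, 8.72, 0.528, 0.269, 0.733 and 0.453 FPKM. Of the 8 DL.reuteri rats, 7 were below the lowest darkness rat and 6 below the lowest control rat, while DL.reuteri 4 lay within the darkness range. The groups overlapped in each of the 3 comparisons.

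The mean of Sult4a1 was 8.72 ± 9.11 FPKM (SD, n = 8) in control rats, 11.0 ± 3.61 FPKM in darkness rats and 1.45 ± 2.94 FPKM in DL.reuteri rats. The highest rat exceeded the lowest 46.2-fold among control rats, 2.67-fold among darkness rats and 53.1-fold among DL.reuteri rats. Without DL.reuteri 4 the DL.reuteri mean was 0.416 ± 0.215 FPKM (n = 7). The group medians were 5.20, 9.81 and 0.490 FPKM. On the log2(FPKM + 1) scale, DL.reuteri rats were lower than darkness rats by a difference of -2.69 (SE 0.48) and differed from control rats by -1.84 (SE 0.48). Darkness rats differed from control rats by 0.85 (SE 0.48), and no darkness rat lay outside the control range. These 3 differences share groups, and the gene was chosen with them known.

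**Figure D1:**
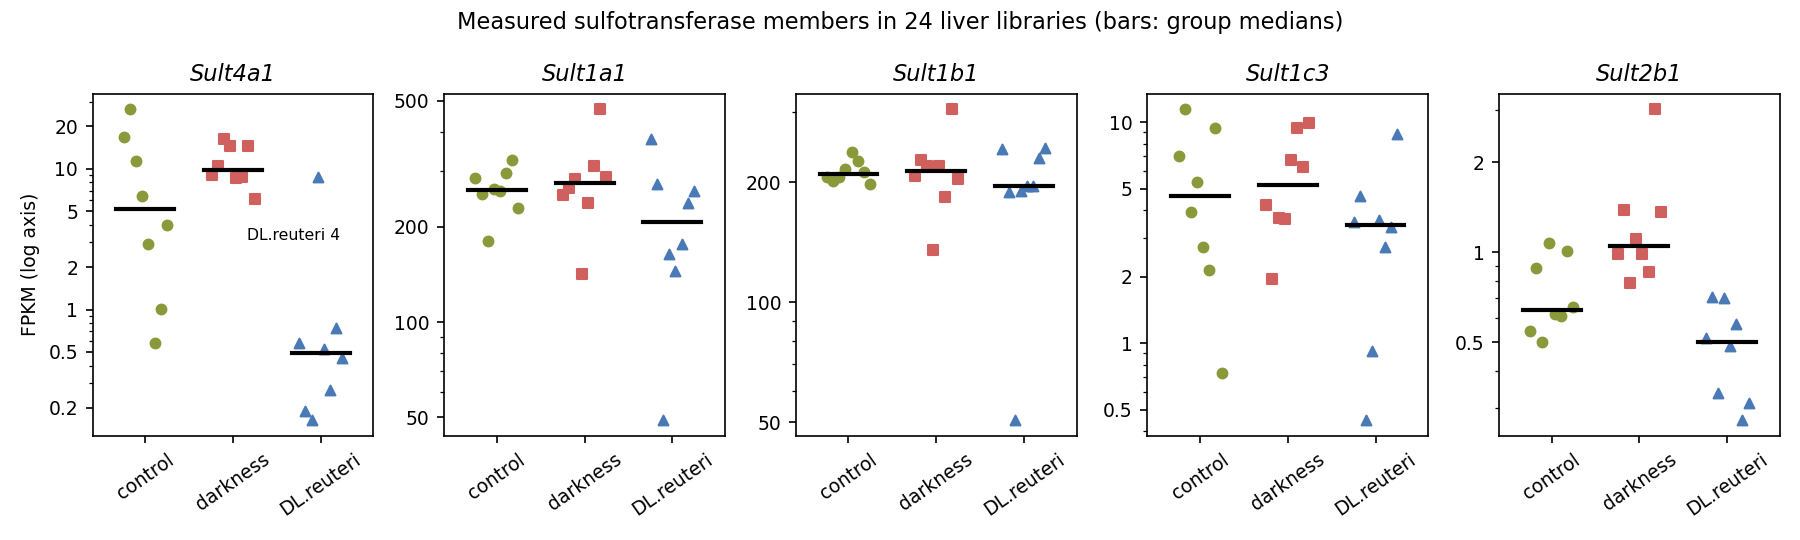
FPKM of the 5 measured sulfotransferases in each library, on log axes that differ between panels, with 1 point per rat, 8 rats per group and a bar at each group median. For Sult4a1, 7 of the 8 DL.reuteri rats lie below every darkness rat and DL.reuteri 4 (8.72 FPKM) lies among them, while for Sult2b1 no DL.reuteri rat overlaps a darkness rat.

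Because Sult4a1 is known mainly from neurons, markers of other cells were read in the same libraries. Of 8 neuron markers, Snap25 and Elavl3 were listed at 0 in all 24 libraries, Gap43 in 22, Stmn2 and Syt1 in 21 and Rbfox3 in 19. Eno2 was at 0 in 10 libraries and reached 0.349 FPKM, and Tubb3 was at 0 in 6 and reached 0.630 FPKM. The 8 neuron markers together summed to between 0 and 0.859 FPKM, with group medians (control, darkness, DL.reuteri) of 0.333, 0.279 and 0.211 FPKM. Sult4a1 was above 6 FPKM in all 8 darkness livers, where the summed neuron markers did not exceed 0.473 FPKM. Which cells held the Sult4a1 transcript was not tested. In bulk tissue, fewer cells with a transcript and less transcript per cell cannot be told apart.

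Sult2b1 (ENSRNOG00000021046) encodes an enzyme that sulfates cholesterol and other 3-beta-hydroxysteroids and is best known from skin. It was the least abundant of the 5 members, from 0.274 to 3.01 FPKM. In control rats 1 to 8 it was 0.544, 0.887, 0.499, 1.08, 0.620, 0.612, 1.01 and 0.656 FPKM. In darkness rats 1 to 8 it was 0.988, 1.39, 0.790, 1.11, 0.984, 0.856, 3.01 and 1.37 FPKM. Darkness rats reached above the control range in 4 of 8 animals, and darkness 7 was more than 2 times as high as the next animal. In DL.reuteri rats 1 to 8 it was 0.516, 0.708, 0.338, 0.702, 0.486, 0.576, 0.274 and 0.313 FPKM. All 8 DL.reuteri rats were below all 8 darkness rats, and the DL.reuteri and control ranges overlapped.

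The mean of Sult2b1 was 0.738 ± 0.221 FPKM (SD, n = 8) in control rats, 1.31 ± 0.720 FPKM in darkness rats and 0.489 ± 0.170 FPKM in DL.reuteri rats. On the log2(FPKM + 1) scale, which compresses differences near 1 FPKM, DL.reuteri rats differed from darkness rats by -0.59 (SE 0.13, limma adjusted p = 0.0551). This difference was not called at the threshold of 0.05. Sult2b1 was chosen with this contrast known, so nothing is read from this p-value or from the calls that follow. Of the 24 fits that left out 1 library each, 3 called it, without darkness 3, DL.reuteri 3 or DL.reuteri 4 (limma adjusted p of 0.0123 at the lowest), and 21 did not (up to 0.113), with differences from -0.64 to -0.47. Of 12 other alternatives 6 called it (limma adjusted p of 0.00407 at the lowest), among them the fit without DL.reuteri 3 and 4, chosen after seeing the data. In the fit of the 2 groups alone the limma adjusted p was 0.147, the highest of the 12. Darkness rats differed from control rats by 0.37 (SE 0.13, limma adjusted p = 0.9998), and by 0.25 without darkness 7. The 5 keratinocyte markers read in the same libraries summed to between 0.379 and 2.76 FPKM in control rats, 0.458 and 1.39 FPKM in darkness rats and 0.370 and 1.21 FPKM in DL.reuteri rats. Among them Krt5 and Ivl were listed at 0 in all 24 libraries, and Krt10 was above 0 in all 24. Their part in the level of Sult2b1 was not tested.

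The RefSeq promoter sequences used here held no entry for Sult4a1, so its promoter was not searched. The promoter of Sult2b1 is shown because it alone, among the 4 members with an entry (Sult1a1, Sult1b1, Sult1c3 and Sult2b1), held 1 of 3 short motifs searched on both strands. It is the 250 bases before the gene start at chr1:105397745-105397994 on the minus strand of the RefSeq assembly GRCr8, which is a later build than that of the expression values. The E-box is written in capitals and starts 19 bases before the gene start.
Sult2b1 promoter: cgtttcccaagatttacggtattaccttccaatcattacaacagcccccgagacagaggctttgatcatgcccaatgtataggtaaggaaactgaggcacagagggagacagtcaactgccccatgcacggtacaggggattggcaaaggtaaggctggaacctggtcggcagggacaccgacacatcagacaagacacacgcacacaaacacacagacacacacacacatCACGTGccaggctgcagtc
The E-box CACGTG, the motif that clock factors and other proteins of the same structural class bind, was found in 1872 of 33469 rat promoters of this length (5.59%). The D-box TTATGTAA (277 promoters, 0.828%), bound by clock output factors, and the sterol element TCACNCCAC (326 promoters, 0.974%), bound by SREBP factors, were found in none of the 4 members. Each motif was searched separately, matches of different motifs may overlap, and a match describes the letters, not a bound site.

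Sult1a1 (ENSRNOG00000019342), the main phenol sulfotransferase of liver, was the most abundant member. Its level ran from 181.1 to 324.7 FPKM (median 261.5) in control rats, from 142.1 to 471.4 FPKM (median 274.3) in darkness rats and from 49.1 to 379.8 FPKM (median 206.9) in DL.reuteri rats. The lowest value was that of DL.reuteri 3, and the 3 groups overlapped. The means were 261.9 ± 43.5 FPKM (SD, n = 8), 281.1 ± 92.2 FPKM and 210.8 ± 99.6 FPKM. The difference between DL.reuteri and darkness rats was -0.54 (SE 0.29, limma adjusted p = 0.365) with all libraries and -0.27 without DL.reuteri 3.

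Sult1b1 (ENSRNOG00000001967), which sulfates thyroid hormones and catechols, varied least in control rats, from 198.6 to 238.4 FPKM (median 209.7), with an SD that was 6.33% of the mean. It ran from 135.3 to 305.5 FPKM (median 213.8) in darkness rats and from 50.7 to 243.4 FPKM (median 195.8) in DL.reuteri rats. Outside DL.reuteri 3, DL.reuteri rats were at 189.3 FPKM or more. The means were 213.4 ± 13.5 FPKM (SD, n = 8), 212.9 ± 47.6 FPKM and 192.1 ± 61.6 FPKM, and the last became 212.3 ± 25.0 FPKM (n = 7) without that library. The difference between DL.reuteri and darkness rats was -0.24 (SE 0.24, limma adjusted p = 0.670), and 0.02 without DL.reuteri 3.

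Sult1c3 (ENSRNOG00000011269), a member of the 1C subfamily that acts on phenols and hydroxylated aromatic amines, was far less abundant than Sult1a1. Its mean over the 24 libraries was 4.87 FPKM, against 251.3 FPKM of Sult1a1. Sult1c3 ran from 0.729 to 11.48 FPKM (median 4.65) in control rats, from 1.96 to 9.96 FPKM (median 5.22) in darkness rats and from 0.449 to 8.89 FPKM (median 3.44) in DL.reuteri rats. The groups overlapped over most of their ranges. The means were 5.35 ± 3.73 FPKM (SD, n = 8), 5.74 ± 2.87 FPKM and 3.51 ± 2.59 FPKM. DL.reuteri rats differed from darkness rats by -0.67 (SE 0.38, limma adjusted p = 0.396), and by -0.47 without DL.reuteri 3. Genes of the 1C cluster are similar in sequence, and how the authors' counting divided reads among them is not known, so the value of each single gene is uncertain.

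Set against all genes, limma called 10 of 12151 genes (0.0823%) between DL.reuteri and darkness rats at an adjusted p under 0.05, 3 higher and 7 lower in DL.reuteri rats. It called 17 genes (0.14%) between DL.reuteri and control rats, and for darkness against control the number was 0 (0%). Sult4a1 is left out of the counts by p-value, and of the other 4 members 0 were called in each comparison. By unadjusted limma p below 0.05, the counts over all genes were 2047 (16.8%), 1608 (13.2%) and 338 (2.78%), with 1, 0 and 1 of the other 4 members, in both cases Sult2b1. Groups did not overlap for 15 genes (0.123%) between DL.reuteri and darkness rats, of which Sult2b1 was 1. For the comparisons of DL.reuteri with control rats and of darkness with control rats, 32 genes (0.263%) and 4 genes (0.0329%) did not overlap, and no member was among them. These counts depended on single libraries. The 10 became 1219 without DL.reuteri 3, 83 without DL.reuteri 4 and 18 without darkness 3, fell to 4 or 5 without control 3, 4, 5 or 8, and fell to 0 or 1 without darkness 2, 5, 6, 7 or 8 or DL.reuteri 1, 2, 5, 6, 7 or 8. The 17 became 251 without DL.reuteri 3 and 26 without DL.reuteri 4, fell to 11 without darkness 3 or 4, and fell to between 0 and 3 without control 1, 2, 4, 5, 7 or 8 or DL.reuteri 1, 2, 5, 6 or 8. The rule that chose the members used these contrasts, so nothing is read from the members' counts.

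The median log2 difference over the 5 members was -0.59 between DL.reuteri and darkness rats, -0.46 between DL.reuteri and control rats and 0.21 between darkness and control rats, beside 0.07, 0.00212 and -0.07 over all genes tested. The members were chosen with these contrasts known, so nothing is read from their medians. In the same order, the medians of the 2 tested sulfotransferases outside the set were 0.26, 0.41 and 0.15. Without DL.reuteri 3, Sult1a1, Sult1b1 and Sult1c3 differed by -0.27, 0.02 and -0.47 between DL.reuteri and darkness rats. The limma adjusted p of the other 4 members was 0.9998 for each between darkness and control rats, 0.0551 to 0.670 between DL.reuteri and darkness rats and 0.487 to 0.678 between DL.reuteri and control rats. These comparisons share groups and are not independent of each other.

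**Figure D2:**
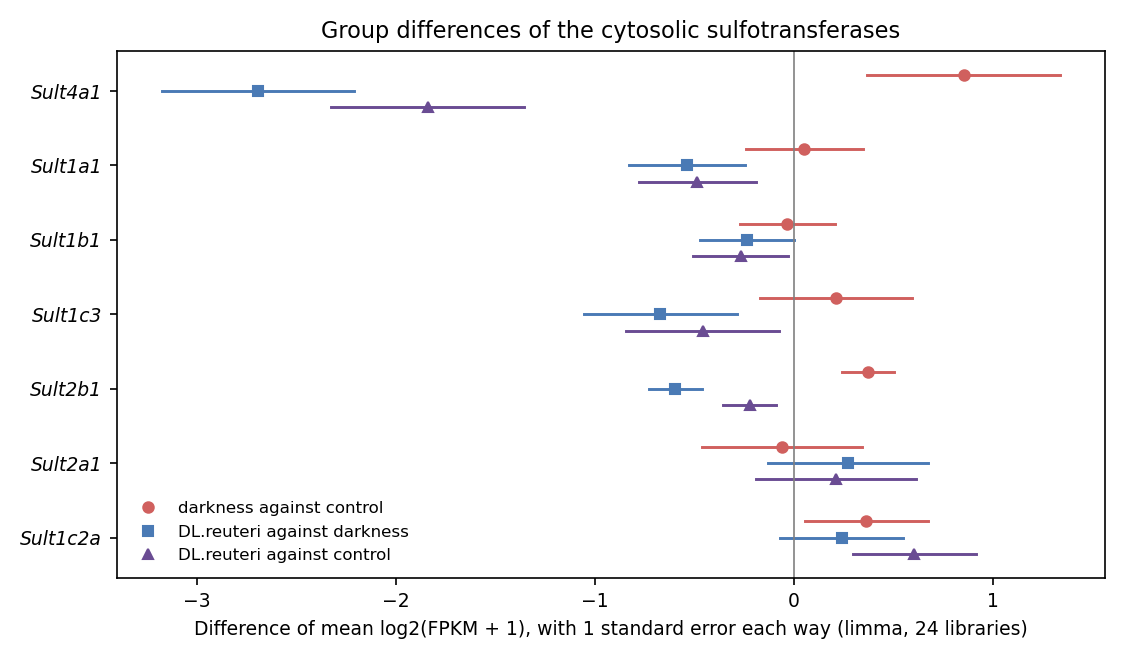
Difference of mean log2(FPKM + 1) between groups for the 5 measured members, Sult2a1 and Sult1c2a, with 1 standard error each way, from 1 limma fit of 24 libraries. Sult4a1 stands farthest from 0, at -2.69 between DL.reuteri and darkness rats, and the other genes lie between -0.67 and 0.61.

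Of 13 other cytosolic sulfotransferase names, 6 had a row and 2 passed the filter, and limma called none of these in any comparison. Sult2a1, which sulfates bile acids and dehydroepiandrosterone, was the most abundant sulfotransferase of these livers. Its mean was 724.8 ± 247.6 FPKM (SD, n = 8) in control rats, 701.0 ± 244.0 FPKM in darkness rats and 989.8 ± 474.1 FPKM in DL.reuteri rats. DL.reuteri 3 had 106.2 FPKM and the other 7 DL.reuteri rats had 521.3 to 1555 FPKM, with a mean of 1116 ± 336.9 FPKM. The difference between DL.reuteri and darkness rats was 0.27 (SE 0.40, limma adjusted p = 0.792), and without DL.reuteri 3 it was 0.68 with an adjusted p of 0.0855 by limma. Without DL.reuteri 3 and DL.reuteri 4 together, a choice made after seeing the data, the limma adjusted p was 0.0219.

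Sult1c2a, of the 1C subfamily, had means of 7.95 ± 5.12 FPKM (SD, n = 8) in control rats, 9.59 ± 3.28 FPKM in darkness rats and 11.8 ± 5.46 FPKM in DL.reuteri rats. DL.reuteri rats differed from control rats by 0.61 (SE 0.31, limma adjusted p = 0.403). The remaining 4 genes were near or at 0. Sult5a1 was above 0 in 11 libraries and reached 0.826 FPKM, RGD1562392 in 7 libraries and reached 0.124 FPKM, Sult1d1 in 2 libraries and reached 0.0794 FPKM, and Sult6b1 was listed at 0 in all 24. By mean FPKM within each group, the order of the 5 members and the 2 tested relatives began with Sult2a1, Sult1a1 and Sult1b1 and ended with Sult2b1. Between them, Sult4a1 (8.72 and 11.0 FPKM) stood before Sult1c2a (7.95 and 9.59 FPKM) and Sult1c3 (5.35 and 5.74 FPKM) in control and darkness rats, whereas in DL.reuteri rats Sult1c2a (11.8 FPKM) and Sult1c3 (3.51 FPKM) stood before Sult4a1 (1.45 FPKM). Neighbours differed by less than the SD of the more variable gene for Sult4a1 and Sult1c2a in control and darkness rats, for Sult1c2a and Sult1c3 in control rats, for Sult1a1 and Sult1b1 in darkness and DL.reuteri rats, and for Sult1c3, Sult4a1 and Sult2b1 in DL.reuteri rats.

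No correlation of Sult4a1 with another member passed the test. After the group means were removed, r between Sult4a1 and the other 4 members over 24 libraries was between -0.08 and 0.09, with permutation adjusted p of 0.796 to 0.870 over the 10 pairs of members. Spearman rho for these 4 pairs was between -0.16 and -0.0113, with a permutation adjusted p of 0.962 for each. One pair passed: Sult1a1 and Sult1b1 had r = 0.88 (100000 permutations within groups, adjusted p = 0.0015) and rho = 0.52 (permutation adjusted p = 0.0514). Without DL.reuteri 3 and darkness 4, the 2 libraries farthest from the median, r was 0.61, and without DL.reuteri 3 alone it was 0.73 (permutation adjusted p = 0.0174). DL.reuteri 3 held the lowest value of both genes, 49.1 and 50.7 FPKM.

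The genes next to Sult4a1 on chromosome 7 were read in the same libraries. In the RefSeq order, taken among genes with a row in the table, Scube1, Mpped1 and Efcab6 lie on one side and Pnpla5, Pnpla3 and Samm50 on the other. Pnpla3 (ENSRNOG00000022268) encodes a lipid droplet protein with lipase and acyltransferase activity, Pnpla5 a related lipase, and Samm50 a protein of the mitochondrial outer membrane. Among the genes next to Sult4a1, 4 were tested, and Pnpla3 was the 1 that limma called, in DL.reuteri against darkness and against control rats. Over all 12151 genes, 10 (0.0823%) and 17 (0.14%) were called in these comparisons.

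Pnpla3 was at 168.2, 243.2, 115.9, 68.0, 46.4, 7.34, 28.9 and 28.6 FPKM in control rats 1 to 8. It was at 45.2, 93.4, 83.8, 85.6, 35.8, 147.7, 81.1 and 43.1 FPKM in darkness rats 1 to 8. The control rats with the 3 highest values of Sult4a1, 1 to 3, also had the 3 highest values of Pnpla3, and control 6 was lowest for both genes. In DL.reuteri rats 1 to 8 it was at 7.90, 3.00, 1.59, 51.3, 3.17, 6.08, 13.1 and 7.73 FPKM. As for Sult4a1, DL.reuteri 4 alone lay within the darkness range, and DL.reuteri 3 was lowest. The mean of Pnpla3 was 88.3 ± 81.9 FPKM (SD, n = 8) in control rats, 77.0 ± 36.4 FPKM in darkness rats and 11.7 ± 16.4 FPKM in DL.reuteri rats.

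DL.reuteri rats were lower than darkness rats in Pnpla3 by a log2 difference of -3.14 (SE 0.58, limma adjusted p = 0.0323), with 7 of 8 below the lowest darkness rat. They were lower than control rats by -2.83 (SE 0.58, limma adjusted p = 0.0433), with 4 of 8 below the lowest control rat. Each call depended on the libraries used. The first held in 13 of 24 fits that left out 1 library and was lost without darkness 2, 5, 6, 7 or 8 or DL.reuteri 1, 2, 5, 6, 7 or 8 (limma adjusted p up to 0.0965), with differences from -3.53 to -2.91. The second held in 8 of 24 such fits and was lost without control 1, 2, 3, 4, 5, 7 or 8, darkness 2, 3, 4 or 8 or DL.reuteri 1, 2, 5, 6 or 8 (limma adjusted p up to 0.109), with differences from -3.23 to -2.54.

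Pnpla5 (ENSRNOG00000022296) had means of 13.1 ± 12.9 FPKM (SD, n = 8) in control rats, 16.4 ± 12.8 FPKM in darkness rats and 2.74 ± 3.27 FPKM in DL.reuteri rats. It differed by -2.32 (SE 0.51, limma adjusted p = 0.0551) between DL.reuteri and darkness rats, with 6 of 8 DL.reuteri rats below the lowest darkness rat. Of 24 fits that left out 1 library, 4 called it, without control 2, control 6, DL.reuteri 3 or DL.reuteri 4 (limma adjusted p of 0.0124 at the lowest), and 20 did not (up to 0.117). Samm50 differed by -0.44 (SE 0.31, limma adjusted p = 0.509), and by -0.14 without DL.reuteri 3. Scube1 differed by 0.19 (SE 0.29, limma adjusted p = 0.799). Mpped1 (mean 0.474 FPKM over 24 libraries) and Efcab6 (0.0951 FPKM) did not pass the filter.

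**Figure D3:**
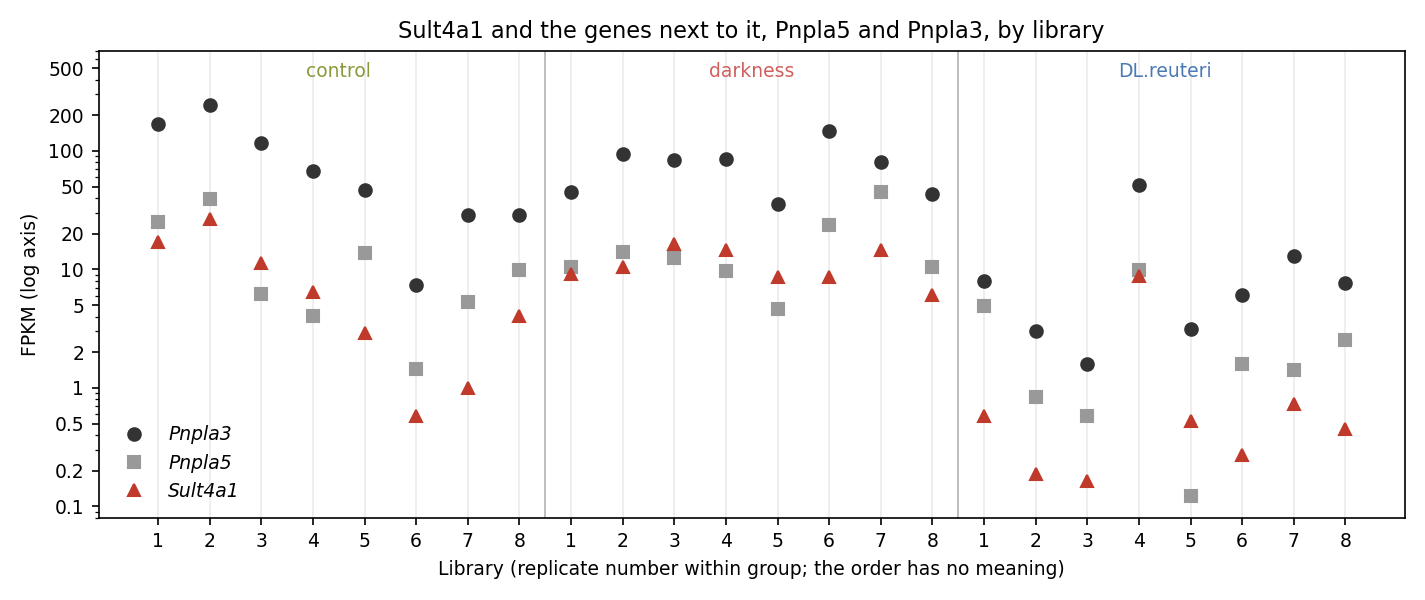
FPKM of Sult4a1, Pnpla5 and Pnpla3 in each of the 24 libraries, on a log axis, with rats named by replicate number within each group. The 3 genes are high together in control 1 and control 2 (16.9 and 26.6 FPKM of Sult4a1) and low in control 6, and in DL.reuteri 4 all 3 stand above the other DL.reuteri rats.

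Over all genes tested, Pnpla3 was the gene most like Sult4a1, first of 12150, with r = 0.94 over the 24 libraries. The next were G6pdx (0.89), the first enzyme of the pentose phosphate pathway, Irs3 (0.85), an insulin receptor substrate, Pnpla5 (0.85) and Nmral1 (0.84), a redox sensor protein. The lowest were Taf7 (-0.74), a subunit of the general transcription factor TFIID, Akr1b7 (-0.72), an aldo-keto reductase, Golga4 (-0.71), a golgin, AABR07041140.1 (-0.70) and Rapgef4 (-0.69), an exchange factor activated by cyclic AMP. These correlations are a description over libraries that share the 3 groups. With the group means removed, r was 0.88 for Pnpla3, 0.77 for G6pdx, 0.81 for Irs3, 0.69 for Pnpla5 and 0.61 for Nmral1, and of these 5 genes 3 were still among the 5 highest. The values for the 5 genes over 23 libraries without DL.reuteri 3 ran from 0.83 to 0.94. Sult2a1 had r = -0.26 with Sult4a1 over 24 libraries and -0.71 without DL.reuteri 3. With the group means removed these values were -0.24 and -0.58.

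Within single groups, Sult4a1 and Pnpla3 had r = 0.95 in the 8 control rats (exact permutation over 40320 orders, p = 0.000298, adjusted p = 0.00357 over 12 correlations) and rho = 0.93 (exact permutation p = 0.00223, adjusted p = 0.0134). In the 8 DL.reuteri rats r was 0.89 (exact permutation p = 0.00288, adjusted p = 0.0173) and rho 0.93 (exact permutation p = 0.00223, adjusted p = 0.0134). In the 8 darkness rats, whose levels spanned the least, r was 0.45 (exact permutation p = 0.261, adjusted p = 0.522) and rho 0.45 (exact permutation p = 0.267, adjusted p = 0.535). Without the 2 libraries farthest from the median of Sult4a1, r was 0.92 in control rats, 0.67 in DL.reuteri rats and 0.25 in darkness rats. The difference in r between groups was not tested.

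Pnpla5 had r = 0.77 with Sult4a1 in control rats (exact permutation p = 0.0272, adjusted p = 0.0875) and 0.76 in DL.reuteri rats (exact permutation p = 0.0292, adjusted p = 0.0875), with rho of 0.71 (exact permutation p = 0.0576, adjusted p = 0.230) and 0.57 (exact permutation p = 0.151, adjusted p = 0.453). Without the 2 farthest libraries these r fell to 0.41 and 0.20. Leaving out the extremes of Sult4a1 also narrows its range, so the fall does not show what these r rested on. For Samm50, r was between -0.15 and -0.08 in the 3 groups, and the exact permutation adjusted p was 0.846 for each. RefSeq places Pnpla5 on the minus strand and Pnpla3 and Samm50 on the plus strand. Whether the counting used strand is not given in the sources used here, so reads of overlapping transcripts cannot be told apart.

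**Figure D4:**
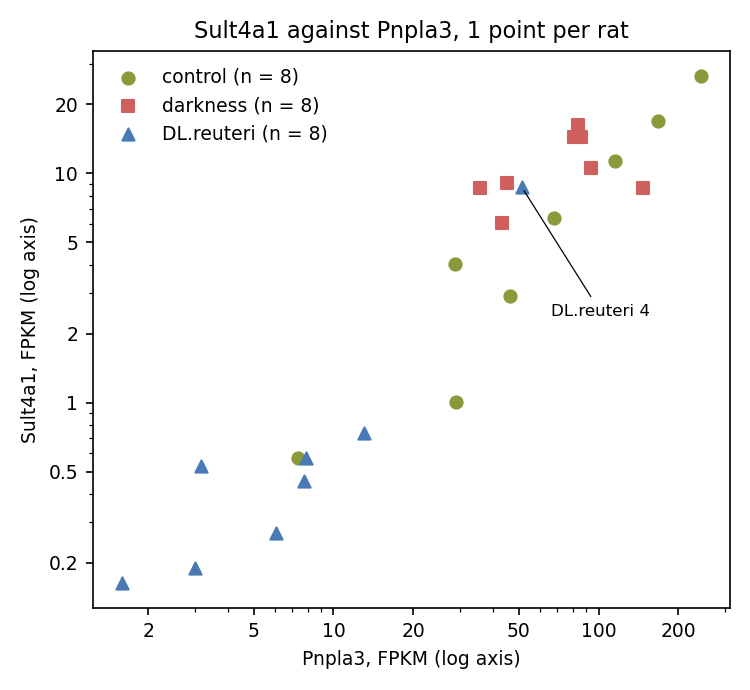
FPKM of Sult4a1 against FPKM of Pnpla3, both on log axes, with 1 point per rat and 8 rats per group. Within control rats (r = 0.95) and within DL.reuteri rats (r = 0.89) the genes rise together, and DL.reuteri 4 sits among the darkness rats.

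The genes that supply and remove sulfate were read from lists. The donor list holds genes of PAPS synthesis, sulfate transport and the oxidation of cysteine and sulfide to sulfate. Of its 21 names 16 were tested, and limma called 0 in each comparison. Counting by unadjusted p below 0.05, none was higher and 4 were lower in DL.reuteri than in darkness rats (over all genes 1453, 12%, were higher and 594, 4.89%, were lower by this rule). Ethe1, the sulfur dioxygenase of mitochondria, differed by -0.93 (SE 0.28, limma adjusted p = 0.0936), Cth, which makes cysteine from cystathionine, by -0.72 (SE 0.28, limma adjusted p = 0.182) and Tst, a sulfurtransferase, by -0.68 (SE 0.33, limma adjusted p = 0.288). Without DL.reuteri 3 the counts were 1 higher and 2 lower, where over all 12127 genes 2766 were higher and 478 lower. The differences of Ethe1, Cth and Tst were then -0.76, -0.64 and -0.33. The median of the donor list was -0.0211, beside 0.07 over all genes tested, and without DL.reuteri 3 it was 0.13, beside 0.15.

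In the fit without DL.reuteri 3, limma called 1219 of 12127 genes between DL.reuteri and darkness rats, and its calls in the other lists stand beside that number. By unadjusted limma p below 0.05 in that fit, 2766 genes were higher and 478 lower in DL.reuteri rats, so most differences pointed upward. Of 15 sulfatases and their activators, 10 were tested and limma called 0 in each comparison. Ids, a lysosomal sulfatase of heparan sulfate and dermatan sulfate, differed by 0.56 (SE 0.22, limma adjusted p = 0.200) between DL.reuteri and darkness rats, Sumf2 by -0.41 (SE 0.23, limma adjusted p = 0.378) and Sulf2, an extracellular endosulfatase, by -0.25 (SE 0.21, limma adjusted p = 0.586). Without DL.reuteri 3, limma called Ids (0.71, adjusted p = 0.0301), and Sumf2 differed by -0.19. Of 36 Golgi sulfotransferases, which act on proteins and sugar chains, 12 were tested and limma called 0. Tpst2, a protein-tyrosine sulfotransferase, differed by -0.41 (SE 0.17, limma adjusted p = 0.224), Chst13 by 0.37 (SE 0.21, limma adjusted p = 0.391) and Chst9 by 0.20 (SE 0.18, limma adjusted p = 0.624). Without DL.reuteri 3 these 3 differences were -0.27, 0.35 and 0.32, and 0 were called.

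Of 16 receptors and factors known to act on sulfotransferase genes, 14 were tested and limma called 0. Counting by unadjusted p below 0.05, 5 stood higher and none lower in DL.reuteri than in darkness rats, where 1453 of all genes (12%) were higher and 594 (4.89%) lower, with a list median of 0.31 beside 0.07 over all genes. Hnf4a, a nuclear receptor that maintains hepatocyte gene expression, differed by 0.59 (SE 0.16, limma adjusted p = 0.0816), Thrb, a thyroid hormone receptor, by 0.43 (SE 0.14, limma adjusted p = 0.133) and Nfe2l2, the oxidative stress factor NRF2, by 0.32 (SE 0.11, limma adjusted p = 0.133). Without DL.reuteri 3, where limma called 1219 of 12127 genes, it called 4 of the 14. These were Hnf4a (0.66), Thrb (0.54), Nfe2l2 (0.30) and Ppara (0.85), the fatty acid receptor of liver, with limma adjusted p of 0.00839, 0.00861, 0.0381 and 0.0269. Between DL.reuteri and control rats limma then called Hnf4a (0.60, adjusted p = 0.0325), where 251 genes were called in all.

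Several liver sulfotransferases differ between the sexes in rodents, so sex-biased genes were read in these female livers. Of the 5 tested genes on the male-biased list, limma called 0. Cyp2c13, of the same P450 subfamily as Cyp2c11 but not on that list, is named for its call alone. It was lower in DL.reuteri than in control rats (-1.09, limma adjusted p = 0.0335), where 17 of 12151 genes (0.14%) were called. Whether that call held without single libraries is not given here. Cyp2c11 differed by -0.73 (SE 0.28, limma adjusted p = 0.179) and Cyp3a2 by -0.71 (SE 0.29, limma adjusted p = 0.205) between DL.reuteri and darkness rats, at means of 1.35 and 1.38 FPKM in darkness rats. Slco1a1 differed by 0.22 (SE 0.22, limma adjusted p = 0.676). Of 5 tested female-biased genes, limma called 0. Akr1b7 differed by 0.48 (SE 0.20, limma adjusted p = 0.213), Prlr, the prolactin receptor, by 0.49 (SE 0.24, limma adjusted p = 0.294) and Cux2 by -0.13 (SE 0.34, limma adjusted p = 0.900). Without DL.reuteri 3, limma called 0 of either list, and Cux2 differed by -0.25.

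Genes of the 2 ends of the liver lobule were read likewise. Between DL.reuteri and control rats, 17 of all 12151 genes (0.14%) were called. Of 9 tested pericentral genes limma called 1, Tbx3, a T-box factor of pericentral hepatocytes, which was higher in DL.reuteri than in control rats by 0.95 (SE 0.18, adjusted p = 0.0335). That call held in 14 of 24 fits that left out 1 library and was lost without control 1, 4, 5, 7 or 8 or DL.reuteri 1, 2, 5, 6 or 8 (limma adjusted p up to 0.102). Against darkness rats Tbx3 differed by 0.88 (SE 0.18, limma adjusted p = 0.0551), Axin2, a target of Wnt signalling, by 0.56 (SE 0.16, limma adjusted p = 0.0911) and Slc1a2, a glutamate transporter, by 0.71 (SE 0.37, limma adjusted p = 0.346). Of 9 tested periportal genes limma called 0. Hal, the first enzyme of histidine breakdown, differed by 0.29 (SE 0.19, limma adjusted p = 0.458) between DL.reuteri and darkness rats, Sds, which deaminates serine, by -0.21 (SE 0.61, limma adjusted p = 0.907) and Gls2, a glutaminase, by -0.18 (SE 0.18, limma adjusted p = 0.678). Without DL.reuteri 3, limma called 1219 of 12127 genes against darkness rats and 251 against control rats. By unadjusted limma p below 0.05, 2766 were then higher and 478 lower in DL.reuteri than in darkness rats. The calls against darkness rats held the pericentral genes Tbx3 (0.91, limma adjusted p = 0.00799), Axin2 (0.53, limma adjusted p = 0.0493) and Slc1a2 (1.005, limma adjusted p = 0.0442). They also held the periportal gene Hal (0.44, limma adjusted p = 0.0342), and Tbx3 was called again against control rats (0.99, limma adjusted p = 0.0196). The differences of Sds and Gls2 were then -0.14 and -0.05.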

How the data were processed

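The authors mapped reads of 24 liver libraries to the rat genome Rnor_6.0 with HISAT2 2.0.4 and deposited FPKM per gene, as calculated with StringTie. Of the 30958 rows, a repeated identifier with only 0 values was dropped. Depth is unknown, so precision comes from 8 rats per group. The paper states that several rats shared each cage, but the cage of each rat is not given. The p-values therefore treat the rats as independent, which shared cages may not allow.

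For each gene, log2(FPKM + 1) was fitted with limma 3.58.1 (R 4.3.3, trend in the variance prior), 3 groups in 1 fit, over 12151 genes that reached 0.5 FPKM in 8 or more libraries. A fold on this scale understates the change of low genes. P-values are two-sided, adjusted by Benjamini and Hochberg over all genes tested, and called at 0.05. Correlations used exact permutation (8 rats) or 100000 permutations within groups (Python 3.11.15, scipy 1.17.1). With 5 members measured, 10 pairs were tested in place of the 21 planned.

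Named are all members, the other sulfotransferases, the genes next to Sult4a1, the 5 genes with the highest and the 5 with the lowest r with Sult4a1, and from each other list the called genes and up to 3 with the smallest p in darkness against control or DL.reuteri against darkness. Cyp2c13 is named outside this rule, for its call. The members and lists were chosen with earlier results of these data known. The fit was checked on simulated data. The alternatives were other pseudocounts, filters and scalings, fits of 2 groups, a library term as in Ballgown, weights per library, a block for replicate number and leaving out libraries. Promoters are from RefSeq (GRCr8), which also gave gene order.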

Additional observations from a re-analysis of the deposited data

Results flagged for a closer look

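In the groups of 8, a value was singled out when its gap to the nearest other animal took up a larger share of the group's range than Dixon's 95% limit allows. Of 33 groups over the 11 tested genes of the sulfotransferase family and of the Sult4a1 neighbourhood, 7 held such a value. Chance flags about 1 in 20 groups where values are normally distributed. FPKM are skewed and the genes share libraries, so the number is not read against that rate. On the log2(FPKM + 1) scale 7 groups also passed the limit, but they were not all the same groups. Sult1a1, Sult2a1 and Samm50 in DL.reuteri rats passed there, while Pnpla3, and Scube1 in darkness and DL.reuteri rats, did not. Among the members, Sult4a1 in DL.reuteri 4 was 8.716 FPKM against 0.733 FPKM in the next animal. Sult1b1 in DL.reuteri 3, the library with the highest mitochondrial share, was 50.69 FPKM against 189.3 FPKM in the next lowest. Sult2b1 in darkness 7 was 3.012 FPKM against 1.386 FPKM in the next. Pnpla3 in DL.reuteri 4 was 51.33 FPKM against 13.09 FPKM, the same animal that stood apart for Sult4a1. Scube1, a low gene, stood apart in 1 animal of each group, with 2.669 FPKM in control 2, 1.885 FPKM in darkness 6 and 3.588 FPKM in DL.reuteri 6. What sets these animals apart was not tested.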

How the results depend on the processing

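Every alternative kept the direction of the 3 Sult4a1 differences. They ran from 0.56 to 1.15 (darkness against control), -3.04 to -2.61 (DL.reuteri against darkness) and -2.19 to -1.54 (DL.reuteri against control) when 1 library was left out. DL.reuteri against darkness became -3.95 with a pseudocount of 0.1, -4.24 with 0.01 and -4.32 as a log2 ratio of medians. DL.reuteri against control became -3.07 with 0.01 and -3.41 as a ratio of medians. The number of genes called by limma moved widely, and the cause was not tested. Between DL.reuteri and darkness rats it was 10, and became 4 with a pseudocount of 0.1 or 0.01 or no filter, 3 in a fit of 2 groups, 393 with 75th percentile scaling, 461 with median ratio scaling, 1000 with scaling outside the mitochondrial genome, 824 with the Ballgown library term, 1987 with array weights, 1 without control 8 and DL.reuteri 2, and 0 to 1219 when 1 library was left out (1219 without DL.reuteri 3, 83 without DL.reuteri 4). Between DL.reuteri and control rats it was 17, and became 10 with a pseudocount of 0.01, 3 with no filter, 1, 167, 147, 255, 466 and 1045 under the fit of 2 groups, the 3 scalings, the library term and the weights, 0 without control 8 and DL.reuteri 2, and 0 to 251 when 1 library was left out. Between darkness and control rats it stayed at 0 except for 1 gene with mitochondrial scaling and 1 with array weights. Scaling outside the mitochondrial genome moved the median of all genes to 0.17 (DL.reuteri against darkness) and 0.14 (against control). Without DL.reuteri 3 and 4 together, chosen after seeing the data, the 3 counts were 1813, 661 and 1. Of the other 4 members limma called 0, and 1, Sult2b1, between DL.reuteri and darkness rats with each of the 3 scalings, the library term, array weights and without DL.reuteri 3 and 4 (adjusted p 0.00407 to 0.0172), and 0 to 1 when 1 library was left out. The members were chosen with these contrasts known, so nothing is read from these calls. Removing the group means kept 3 of the 5 genes most like Sult4a1. Correlations between same-numbered libraries ran from -0.39 to 0.60, with 12 of 24 over 0.1. Libraries of different numbers were not compared, so this does not settle whether the numbers pair the libraries. The replicate block gave 3, 9 and 0 called genes. Sult2b1 did not pass a filter of 1 FPKM and has no value there. Without counts, the limit that depth sets on low genes is unknown.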
